A study of Mus musculus with 18 samples.

Results

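Amino acid transporters of 7 solute carrier families were followed across cells sorted from the mouse trachea. The members were chosen by name alone: every gene of the deposited count table whose symbol starts with Slc1a, Slc3a, Slc6a, Slc7a, Slc36a, Slc38a or Slc43a followed by a digit. This rule found 66 of the 26327 gene symbols. Of these, 31 passed the filter on low counts and were tested, namely 30 transporters and Slc7a6os, a gene beside Slc7a6 on the other strand, and 35 did not pass. The naming rule also takes in some members that carry other cargo, such as monoamines, creatine or nucleobases.

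All animals were untreated ChAT(BAC)-eGFP mice of a congenic B6 strain by their label, in which a bacterial artificial chromosome places enhanced green fluorescent protein (eGFP) under the choline acetyltransferase locus. The 18 libraries were of 3 kinds: 7 of brush cells (CD45 negative, EpCAM positive, eGFP positive), 7 of EpCAM+ epithelial cells (CD45 negative, EpCAM positive) and 4 of CD45+ hematopoietic cells. The EpCAM+ gate is not described as leaving out eGFP positive cells, and the transgene, the enzymes used to free the cells and the exclusion of dead cells were common to the 3 groups. No label says whether each library had its own animal, and p-values therefore measure the spread between these libraries, which may be technical.

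Amino acids cross membranes through carriers that differ in what drives them. Family 1 and family 6 proteins use the sodium gradient (family 6 mostly with chloride) to concentrate glutamate, small neutral amino acids, taurine or glycine, and several family 38 proteins bring in glutamine and alanine with sodium. Most family 7 proteins are exchangers or cationic carriers, and a group of them reaches the cell surface only when joined by a disulfide bond to the glycoprotein Slc3a2, the heavy chain. Brush cells, known as tuft cells in the gut, are scarce cells of the airway surface that sense chemicals. EpCAM+ sorting collects cells that carry the epithelial surface protein EpCAM.

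The groups carried the main markers of their labels, with the limits given below. Trpm5, the taste transduction channel of brush cells, averaged 2327 CPM (counts scaled to library size) in brush libraries, 1.04 in EpCAM+ and 0.651 in CD45+ libraries. Epcam averaged 2126, 504 and 28.9 CPM in the same order, and Chat 243, 1.28 and 28.9. The 8 brush cell markers summed to 8786 to 10335 CPM in brush, 8.07 to 34.9 in EpCAM+ and 11.5 to 108 in CD45+ libraries. The 6 fibroblast markers summed to 251 to 520 CPM in EpCAM+ and 3.63 to 26.4 in brush libraries. For the 6 neuroendocrine markers the sums were 4.27 to 1435 and 34.0 to 362 CPM. Krt5, a basal cell keratin, averaged 931 CPM in EpCAM+ against 17.0 in brush libraries, and Scgb1a1, the club cell secretoglobin, 5149 against 57.3. Ptprc, which encodes CD45, averaged 962 CPM in CD45+ against 21 in brush libraries. The ciliated cell gene Foxj1 averaged 5.27 CPM in EpCAM+ libraries. The 6 ciliated cell markers summed to 341 to 1433 CPM there, 89.6 to 281 in brush and 163 to 599 in CD45+ libraries. The part of these other cell types in the differences was not tested. Total counts ran from 838328 to 6031711 in brush, 2442601 to 6087184 in EpCAM+ and 371652 to 7438791 in CD45+ libraries, and ribosomal RNA took 24% to 63.5%, 12.2% to 34.1% and 20.7% to 43.4% of them. Brush replicate 4, with 838328 counts and the highest ribosomal RNA share of its group, EpCAM+ replicate 5 and CD45+ replicate 1 stood apart from the other libraries. Brush replicate 4 was the lowest brush library, or tied for it, in 19 of the 31 members tested. EpCAM+ replicate 5 was so within its group in 16 and CD45+ replicate 1 in 24. In CD45+ replicate 1, with 371652 counts, the values of Slc7a7, Slc7a8 and Slc43a2 rest on 2 counts each. In bulk libraries such as these, fewer cells of a type and less RNA per cell cannot be told apart.

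The transporters of brush cells differed from those of EpCAM+ cells in both directions. Of the 31 members tested, 11 were higher in brush than in EpCAM+ libraries, 11 were lower and 9 did not pass the test (adjusted p under 0.05 over all 13418 genes tested). Among all genes tested, 18.3% were higher and 22.0% lower in the same comparison, against 35.5% of the members in each direction. Of the lower members, Slc1a1, Slc1a3, Slc6a14, Slc6a15 and Slc7a2 passed the filter on low counts through EpCAM+ libraries alone. Of the higher ones, Slc7a3 passed it through brush libraries alone. The filter and these calls are thus not independent, and the shares include them. The median log2 difference of the members was 0.40, beside -0.06 over all genes. The carriers of small neutral amino acids and of glutamine Slc1a4 and Slc38a1, the system L carrier Slc43a2 and the cationic family members Slc7a1, Slc7a3 and Slc7a4 were among the higher ones. The taurine transporter Slc6a6, the heavy chain Slc3a2, the glutamate transporters Slc1a1 and Slc1a3 and the cationic carrier Slc7a2 were among the lower ones.

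Against CD45+ libraries, 5 members were higher in brush cells, 7 were lower and 19 did not pass, with 23.4% of all genes higher and 22.4% lower. The members' shares were 16.1% and 22.6%, and their median log2 difference was 0.06, beside 0.05 over all genes. Slc1a4, Slc7a3 and Slc7a4 were higher in brush cells in both comparisons, where 11.3% of all genes were. Slc3a2, Slc6a6, Slc7a2 and Slc7a11 were lower in both, where 9.82% of all genes were. The comparisons share the 7 brush libraries and are not independent of each other. For reference, EpCAM+ libraries were above CD45+ libraries in 11 members and below them in 7, where 22.5% and 18.1% of all genes were.

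**Figure D1:**
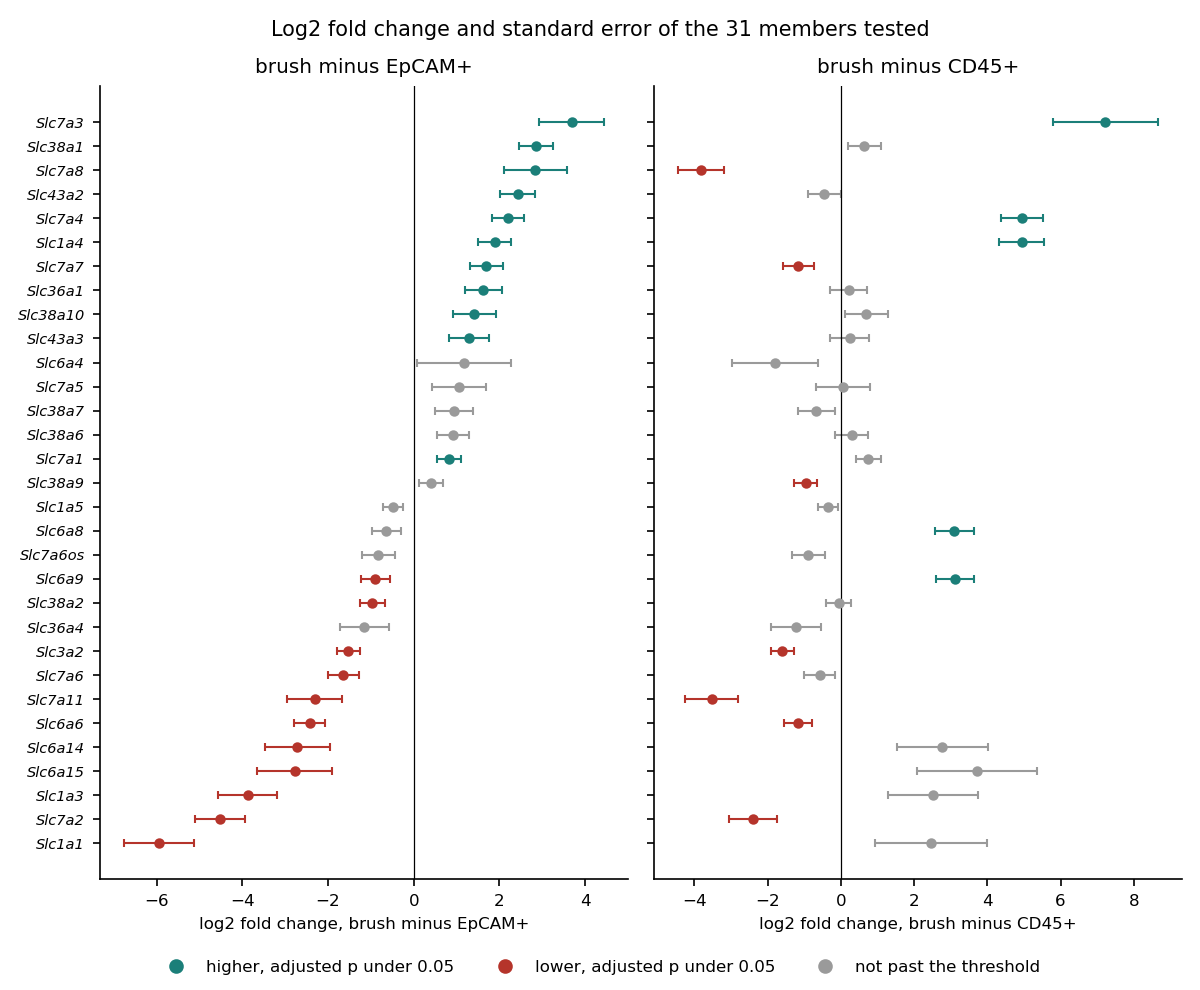
Log2 fold change with its standard error for the 31 members tested, brush minus EpCAM+ on the left axis and brush minus CD45+ on the right axis, colored by whether the adjusted p was under 0.05. In the left panel 11 members lie above 0 and 11 below it past the threshold, from Slc7a3 at 3.68 to Slc1a1 at -5.95; the value of Slc7a3 in the right panel rests on 0 counts in CD45+ libraries and is no estimate of its size.

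Slc7a4 was the family 7 member with the highest level in brush cells. It is placed among the cationic amino acid transporters by sequence, although its transport activity is not settled, and it lies on chromosome 16 from 17572018 to 17583214, minus strand (GRCm38). Brush libraries held 35.8 CPM at the lowest, 103 at the median and 135 at the highest, EpCAM+ libraries 11.1, 21.2 and 34.3, and the 4 CD45+ libraries 0, 2.49, 0.767 and 7.37. All brush libraries were above all others in CPM. In TPM, a level scaled for gene length, the lowest brush library had 7.81 and the highest EpCAM+ library 12.89. The mean was 95.6 ± 30.7 CPM in brush and 20.9 ± 6.95 in EpCAM+ libraries (SD, n = 7 each), a log2 difference of 2.20 with a standard error (SE) of 0.37 (adjusted p = 4.15e-05, edgeR). Against CD45+ libraries the log2 difference was 4.93 (SE 0.57, adjusted p = 1.83e-07), and 6.08 without CD45+ replicate 4. P2rx6, an ATP-gated channel gene, overlaps 13.3% of the exon bases of Slc7a4 on the opposite strand and averaged 11.9 CPM in brush, 1.65 in EpCAM+ and 0 in CD45+ libraries. Whether the counting used strand is not given in the sources used here, so reads of the shared bases cannot be told apart.

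The other cationic carriers did not move together. Slc7a1, the widely expressed arginine and lysine importer, ranged from 26.4 over a median of 55.1 to 61.0 CPM in brush libraries and from 18.9 over 25.5 to 43.8 in EpCAM+ libraries. The groups overlapped through brush replicate 4 alone, and the log2 difference was 0.82 (SE 0.28, adjusted p = 0.0205). This call was lost without brush replicate 1, 3 or 7, with values from 0.75 to 0.77. Slc7a3, a cationic carrier known chiefly from the nervous system, was scarce in all libraries, at 0 to 9.61 CPM in brush (median 2.26) and 0 to 0.926 in EpCAM+ libraries. It was counted in 6 of 7 brush libraries, 138 counts in all, in 4 of 7 EpCAM+ libraries and in no CD45+ library. Its log2 difference from EpCAM+ libraries was 3.68 (SE 0.76, adjusted p = 5.52e-04), and brush cells were at least 23.3-fold above the CD45+ group, taking 3 counts over that group as the floor.

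Slc7a2, the cationic carrier known from liver and activated macrophages, went the other way. Brush libraries held 0 to 1.63 CPM (median 0.811) and EpCAM+ libraries 9.03 to 30.5 (median 22.4), with no overlap. The log2 difference was -4.53 (SE 0.59, adjusted p = 1.26e-06). The CD45+ libraries held 0, 11.2, 1.75 and 2.54 CPM, so that replicate 2 stood above the other CD45+ libraries. Brush cells were lower than CD45+ cells by the test, at a log2 difference of -2.4 (SE 0.65), but not without that library, at -1.17 (adjusted p from 0.00185 to 0.171 over the alternatives). Of the 4 cationic members tested, 3 were thus higher and 1 lower in brush than in EpCAM+ cells.

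**Figure D2:**
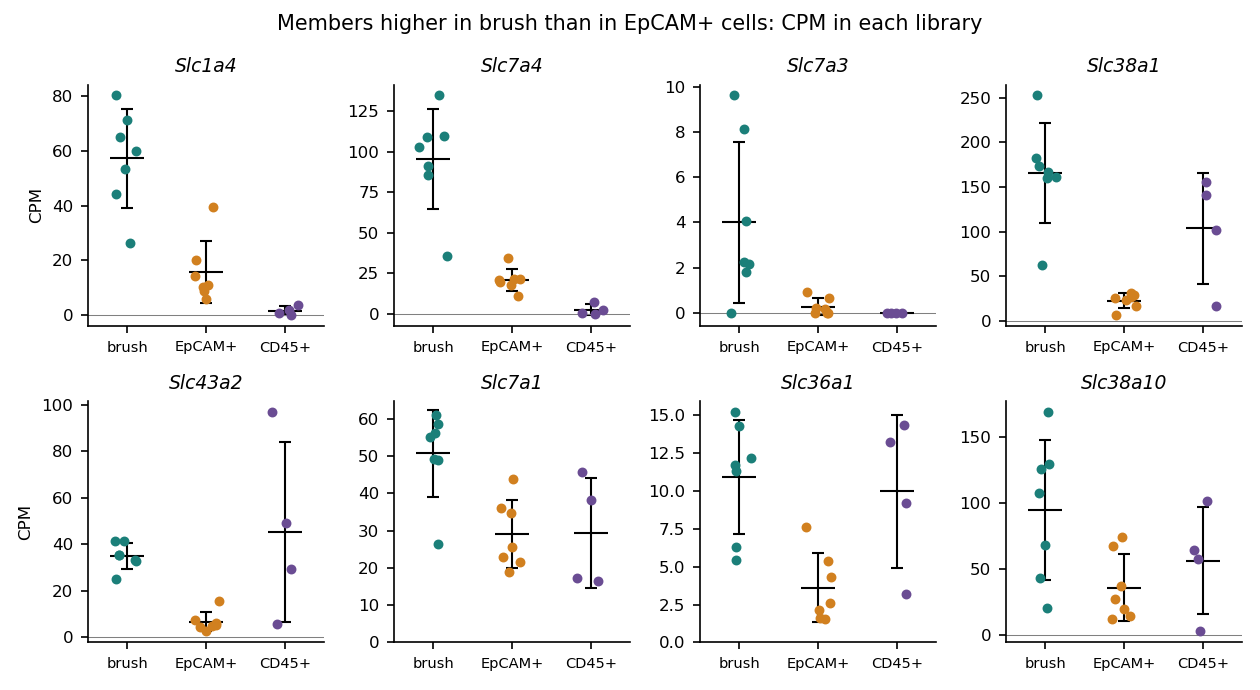
CPM of 8 members higher in brush than in EpCAM+ cells, 1 point per library, with group means and SD bars (n = 7, 7 and 4). Slc7a4, Slc38a1 and Slc43a2 show brush and EpCAM+ points that do not overlap, while the CD45+ points of Slc38a1, Slc43a2, Slc36a1 and Slc38a10 spread over the brush range.

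In family 1, the neutral amino acid exchanger Slc1a4 was higher and the glutamate carriers Slc1a1 and Slc1a3 were lower in brush than in EpCAM+ cells. Slc1a4 encodes ASCT1, which exchanges alanine, serine, cysteine and threonine (chromosome 11, 20302180 to 20332713, minus strand). It ran from 26.4 over 59.9 to 80.3 CPM in brush and from 5.86 over 10.8 to 39.5 in EpCAM+ libraries, and the 4 CD45+ libraries had 0, 3.74, 0.767 and 1.78. Only EpCAM+ replicate 2, at 39.5 CPM, reached into the brush range. The log2 difference was 1.89 from EpCAM+ (SE 0.39, adjusted p = 4.09e-04) and 4.93 from CD45+ libraries (SE 0.62, adjusted p = 6.29e-07), the latter 5.67 without CD45+ replicate 2. Its relative Slc1a5, the glutamine exchanger ASCT2, averaged 80.4 ± 9.46 CPM in brush, 112 ± 23.9 in EpCAM+ and 102 ± 40.3 in CD45+ libraries and passed no test.

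The glutamate and aspartate carriers Slc1a1 (EAAC1) and Slc1a3 (GLAST) were nearly absent from brush libraries. Their EpCAM+ means lie under the 10 CPM set for giving full values, and they were singled out after these were seen. Slc1a1 had 4 counts in the 7 brush libraries together, 283 in the EpCAM+ libraries (0.617 to 20.0 CPM, median 10.5) and 0 in the CD45+ libraries. The log2 difference between brush and EpCAM+ cells was -5.95 (SE 0.82, adjusted p = 5.98e-06), and EpCAM+ cells were at least 57.5-fold above CD45+ cells. The gene 4430402I18Rik covers 31.9% of the exon bases of Slc1a1 on the opposite strand and averaged at most 1.32 CPM in any group. Slc1a3 lay between 0 and 1.31 CPM in brush and 2.16 and 13.0 in EpCAM+ libraries, a log2 difference of -3.88 (SE 0.69, adjusted p = 8.20e-05) that was -4.74 without brush replicate 7. For both genes the brush and EpCAM+ libraries did not overlap.

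Among the sodium-coupled carriers of family 38, Slc38a1 set brush cells apart from EpCAM+ cells. It encodes SNAT1, an importer of glutamine and alanine, on chromosome 15 from 96571418 to 96642913, minus strand. Brush libraries ranged from 62.2 over 167 to 253 CPM and EpCAM+ libraries from 6.79 over 25.3 to 31.2, so that all brush libraries were higher. The log2 difference was 2.86 (SE 0.40, adjusted p = 3.36e-06). The CD45+ libraries had 17.2, 141, 156 and 102 CPM, of which 3 lay within the brush range, and the brush against CD45+ difference did not pass (log2 0.64, adjusted p = 0.25). The 6 leukocyte markers, all detected in brush libraries, summed to 14.8 to 39.7 CPM there, 0 to 3.21 in EpCAM+ and 5516 to 6506 in CD45+ libraries, and their part in the brush values of Slc38a1 was not tested. The mean of Slc38a1 was 166 ± 55.8 CPM in brush and 104 ± 62.1 in CD45+ libraries.

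Slc38a2, the SNAT2 importer that cells raise when starved of amino acids, was lower in brush cells. It ran from 71.6 over 113 to 176 CPM in brush and from 126 over 203 to 383 in EpCAM+ libraries, with overlap, and the log2 difference was -0.96 (SE 0.30, adjusted p = 0.0123). In CD45+ libraries it was 94.8, 141, 123 and 113 CPM, inside the brush range. Slc38a10, a little characterised member, spread from 20.7 over 108 to 169 CPM in brush and from 12.6 over 27.1 to 73.9 in EpCAM+ libraries. Its log2 difference of 1.41 (SE 0.50, adjusted p = 0.0278) was lost when any 1 of brush replicates 2 and 7 or EpCAM+ replicates 4, 6 and 7 was left out, with values from 1.2 to 1.35. Slc38a9, the lysosomal arginine sensor of the mTORC1 pathway, differed little between brush and EpCAM+ cells (17.4 ± 7.41 and 13.3 ± 3.76 CPM). It ran from 10.3 over 16 to 32.6 CPM in brush libraries, and in CD45+ libraries it was 28.7, 30.2, 32.2 and 45.5. Only brush replicate 6, at 32.6 CPM, reached into the CD45+ values. The log2 difference from CD45+ cells was -0.96 (SE 0.32, adjusted p = 0.0173), lost without CD45+ replicate 4 at -0.79. Slc38a6 and Slc38a7 passed neither brush comparison, with brush means of 7.42 and 10.1 CPM.

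Slc43a2, the sodium-independent LAT4 carrier of leucine, isoleucine, phenylalanine and methionine, was higher in brush than in EpCAM+ cells. Its values were 25.0, 35.2 and 41.5 CPM (lowest, median, highest) in brush and 2.69, 5.24 and 15.3 in EpCAM+ libraries, without overlap. The log2 difference was 2.43 (SE 0.41, adjusted p = 4.03e-05). The 4 CD45+ libraries, at 5.75, 49.1, 29.3 and 97.0 CPM, lay below, within and above the brush range, and that difference did not pass. Slc43a3, which carries purine nucleobases rather than amino acids, ran from 4.91 over 7.54 to 22.2 CPM in brush and from 1.54 over 4.83 to 8.65 in EpCAM+ libraries, with overlap. The log2 difference of 1.28 (SE 0.47, adjusted p = 0.0313) was lost, among the fits without 1 library, in those without brush replicate 1, 3 or 7 or EpCAM+ replicate 1 or 2, at 1.08 to 1.24. The proton-coupled carrier Slc36a1 (PAT1), which exports small amino acids from lysosomes, had 5.44, 11.7 and 15.2 CPM in brush and 1.54, 2.60 and 7.62 in EpCAM+ libraries. The groups overlapped, and the log2 difference was 1.62 (SE 0.43, adjusted p = 0.00396). Slc36a4 passed no test.

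The heavy chain Slc3a2 (CD98) was lower in brush cells than in both other groups. It lies on chromosome 19 from 8706882 to 8723369, minus strand. Brush libraries held 102 to 190 CPM (median 148), EpCAM+ libraries 253 to 513 (median 432) and the CD45+ libraries 204, 466, 408 and 697. No brush library reached the lowest library of the other groups in CPM. In TPM the groups overlapped, at 39.1 to 179 in brush, 93.7 to 349 in EpCAM+ and 94.9 to 382 in CD45+ libraries. The means were 147 ± 31.6 (n = 7), 423 ± 81.4 (n = 7) and 444 ± 203 CPM (n = 4), with log2 differences of -1.52 from EpCAM+ (SE 0.27, adjusted p = 8.60e-05) and -1.60 from CD45+ libraries (SE 0.31, adjusted p = 1.39e-04). EpCAM+ and CD45+ libraries differed by a log2 value of -0.07, with an adjusted p of 0.884.

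Of the light chains that join Slc3a2, Slc7a6 was lower and Slc7a7 higher in brush than in EpCAM+ cells. Slc7a6 (y+LAT2), an exchanger of cationic for neutral amino acids, ran from 10.9 over 17.3 to 23.7 CPM in brush and from 28.0 over 40.2 to 113 in EpCAM+ libraries. These did not overlap, and the log2 difference was -1.65 (SE 0.36, adjusted p = 7.04e-04). Slc7a7 (y+LAT1), which does the same exchange and is mutated in lysinuric protein intolerance, ran from 7.47 over 16.1 to 24.4 CPM in brush and from 0.926 over 4.89 to 6.87 in EpCAM+ libraries. Here all brush libraries were higher, at a log2 difference of 1.70 (SE 0.39, adjusted p = 0.00119). Oxa1l shares 7.0% of the exon bases of Slc7a7 on the opposite strand and averaged 52.1, 56.0 and 59.8 CPM in brush, EpCAM+ and CD45+ libraries.

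Both Slc7a7 and the system L exchanger Slc7a8 (LAT2) had their highest group means in CD45+ cells. The CD45+ libraries held 5.75, 45.9, 30.9 and 47.2 CPM of Slc7a7, and brush cells were lower at a log2 difference of -1.17 (SE 0.42, adjusted p = 0.0273), a call lost, among the fits without 1 library, when brush replicate 6 or CD45+ replicate 2 or 4 was left out (-1.02 to -0.96). For Slc7a8 the CD45+ libraries held 5.75, 40.9, 18.8 and 90.9 CPM, and brush libraries 0 to 6.61 with a median of 2.5. Only CD45+ replicate 1, with 2 counts, lay within the brush range. The brush against CD45+ difference was -3.83 (SE 0.63, adjusted p = 2.48e-05), and -3.04 without CD45+ replicate 4. In EpCAM+ libraries Slc7a8 stayed between 0 and 1.35 CPM, and brush cells were above it by the test. That log2 difference of 2.84 (adjusted p = 0.00301) rested on 91 brush counts and 11 EpCAM+ counts, and was 3.50 without EpCAM+ replicate 7. The 6 leukocyte markers summed to at most 39.7 CPM in brush and at least 5516 in CD45+ libraries, as given above, and their part in these brush values was not tested. Slc7a5 (LAT1), the system L exchanger of many growing cells, was scarce in every group, with means of 1.80, 0.900 and 1.47 CPM.

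Slc7a11, the light chain xCT that imports cystine for glutathione synthesis, was scarce as well and is described because it was lower in both brush comparisons. Its means lie under the 10 CPM set for full values, and it was chosen after they were seen. Brush libraries held 0 to 0.608 CPM (12 counts in all), EpCAM+ libraries 0.270 to 4.32 and the 4 CD45+ libraries 11.5, 7.98, 2.41 and 2.29. The CD45+ libraries were all above the brush libraries, with the 11.5 CPM of CD45+ replicate 1 resting on 4 counts. The EpCAM+ libraries overlapped the brush libraries at the low end. The log2 difference was -2.31 from EpCAM+ (SE 0.64, adjusted p = 0.00575) and -3.53 from CD45+ libraries (SE 0.72, adjusted p = 2.73e-04).

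The bases upstream of Slc7a11 are shown because this gene is a known target of the transcription factor ATF4 and carries the letters of its composite site. The 250 bases before the start of the gene come from RefSeq (GRCm38.p6, minus strand, chr3:50443614-50443863), and capitals mark both matches to TGATGNAA, the core of the CCAAT-ATF response element, 1 on each strand.
Slc7a11 upstream: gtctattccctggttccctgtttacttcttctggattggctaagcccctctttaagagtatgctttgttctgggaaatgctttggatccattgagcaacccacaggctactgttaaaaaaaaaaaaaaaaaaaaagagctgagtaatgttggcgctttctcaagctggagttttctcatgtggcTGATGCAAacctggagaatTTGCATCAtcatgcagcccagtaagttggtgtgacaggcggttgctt
The matches begin 66 and 47 bases before the start site, and a match to the octamer ATGCAAAT, 49 bases before it on the minus strand of this window, overlaps the second. Upstream windows of 250 bases were found for 21 of the 31 members tested, 30 windows in all, and were searched on both strands. The TGATGNAA core was in 3 of these, that of Slc7a11 and 2 of Slc7a7, beside 3.45% of all 32851 windows of the table, and the octamer was in 1 of 30, beside 1.60%. A match describes letters, not binding.

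**Figure D3:**
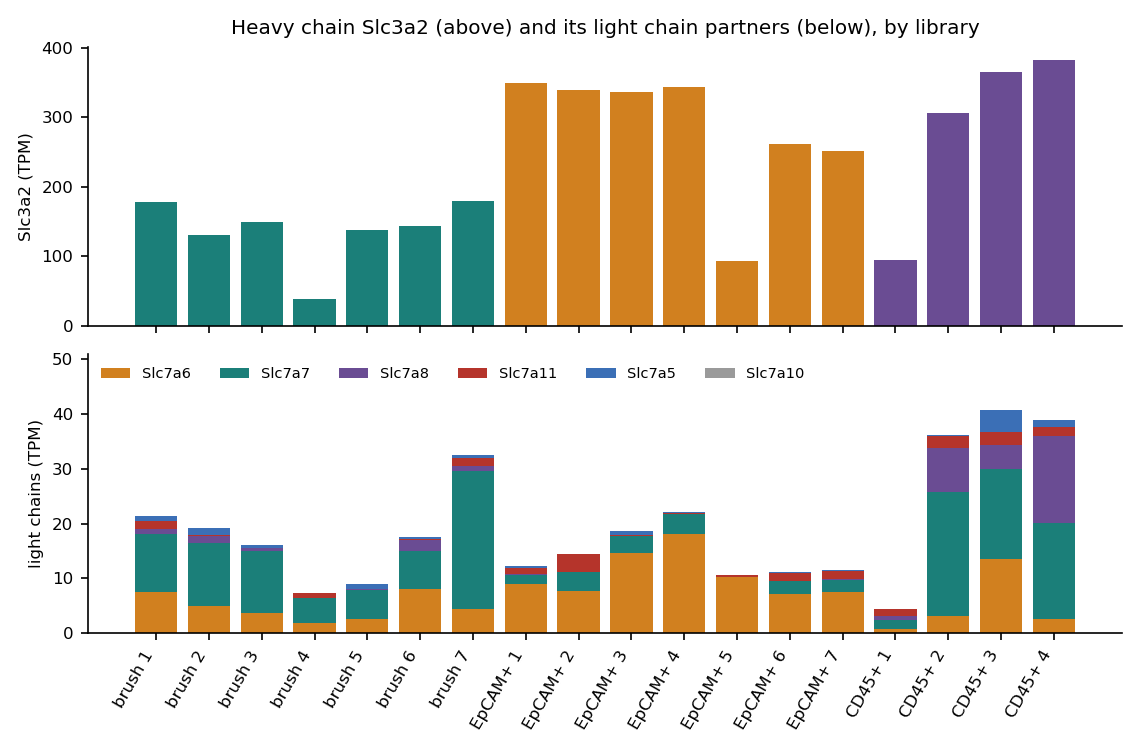
Slc3a2 (upper panel) and its 6 light chain partners stacked (lower panel), in TPM (a level scaled for gene length) for each of the 18 libraries. Slc7a7 makes up most of the light chain TPM in most brush libraries and Slc7a6 in all EpCAM+ libraries; the axes of the panels differ in scale.

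On the per-length TPM scale, which allows levels of different genes to be set side by side, the light chains can be read as shares of their sum. Slc7a7 made up 59.5 ± 12.3% of the summed TPM of 6 light chains (Slc7a5, Slc7a6, Slc7a7, Slc7a8, Slc7a10 and Slc7a11) in brush libraries, 15.7 ± 7.48% in EpCAM+ and 46.1 ± 11.3% in CD45+ libraries. Slc7a6 made up 28.4% (13.9% to 45.8%), 73.2% (53.4% to 96.1%) and 17.0% (6.6% to 33.4%). Slc7a8 was 22.9 ± 12.8% of the sum in CD45+ libraries and 4.26 ± 3.83% in brush libraries. The TPM of Slc3a2 was 8.39 ± 3.34 times the sum of the light chains in brush (5.29 to 15.2), 19.9 ± 6.38 times in EpCAM+ (8.77 to 28.4) and 12.3 ± 6.41 times in CD45+ libraries. The ranges of this ratio overlapped between all groups, and no test was made of the ratio, the sums or the shares.

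The family 6 members were lower in brush than in EpCAM+ cells wherever they passed. Slc6a6 (TauT), which imports taurine and beta-alanine, lies on chromosome 6 from 91684053 to 91759066, plus strand. It ran from 77.3 over 127 to 192 CPM in brush, from 389 over 768 to 986 in EpCAM+, and was 66.1, 375, 245 and 528 CPM in CD45+ libraries. Every EpCAM+ library lay above every brush library in CPM, while CD45+ replicate 1 lay below the brush libraries. In TPM the brush and EpCAM+ libraries overlapped, at 11.55 to 81.06 and 37.07 to 375.83. The log2 difference was -2.43 from EpCAM+ (SE 0.36, adjusted p = 8.30e-06). From CD45+ libraries it was -1.17 (SE 0.39, adjusted p = 0.0172), lost without CD45+ replicate 2 or 4, at -1.06 and -0.77, and with limma-voom, at -0.95 (adjusted p from 1.68e-04 to 0.152 over the alternatives).

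Slc6a14 (ATB0,+), a broad importer of neutral and cationic amino acids known from airway and gut epithelium, was variable. It ran from 0 over 1.35 to 3.27 CPM in brush and from 0 over 8.09 to 37.7 in EpCAM+ libraries, with the highest value in EpCAM+ replicate 1 and 0 counts in EpCAM+ replicate 5. The log2 difference of -2.72 (SE 0.76, adjusted p = 0.00582) was -2.08 without EpCAM+ replicate 1, and limma-voom gave -1.78 without passing (adjusted p from 5.75e-04 to 0.128 over the alternatives). Slc6a15, a carrier of branched-chain amino acids and proline, averaged 1.15 CPM in brush, 8.31 in EpCAM+ and 0.0635 in CD45+ libraries. It was lower in brush than in EpCAM+ cells in the edgeR test and not in limma-voom (adjusted p from 0.00610 to 0.0848 over the alternatives).

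The creatine transporter Slc6a8 and the glycine transporter Slc6a9 (GlyT1) were higher in both epithelial fractions than in CD45+ cells. Slc6a8 ran from 8.94 over 13.2 to 17.3 CPM in brush and from 8.62 over 20.1 to 29.5 in EpCAM+ libraries, and was 0, 1.5, 2.52 and 0.254 in CD45+ libraries. Both epithelial fractions lay wholly above the CD45+ libraries. The brush against CD45+ log2 difference was 3.10 (SE 0.53, adjusted p = 3.36e-05), and 3.93 without CD45+ replicate 3. Slc6a9 ran from 3.77 over 8.16 to 13.4 CPM in brush and from 7.40 over 18.4 to 26.3 in EpCAM+ libraries, and averaged 0.859 in CD45+ libraries. It was higher in brush than in CD45+ cells, at a log2 difference of 3.11 (adjusted p = 2.77e-05) that became 3.75 without CD45+ replicate 4. The brush and EpCAM+ libraries overlapped, and the log2 difference of -0.90 (SE 0.33, adjusted p = 0.0345) was lost under 11 of 28 alternatives, among them leaving out any 1 of brush replicates 1, 3, 4, 5 or 6 or EpCAM+ replicates 1 to 4 (adjusted p from 0.0112 to 0.0906). Ccdc24 overlaps 27.8% of its exon bases on the opposite strand. The serotonin transporter Slc6a4 was at 0 in 4 of 7 brush libraries and reached 7.25 CPM in another, and passed no test.

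**Figure D4:**
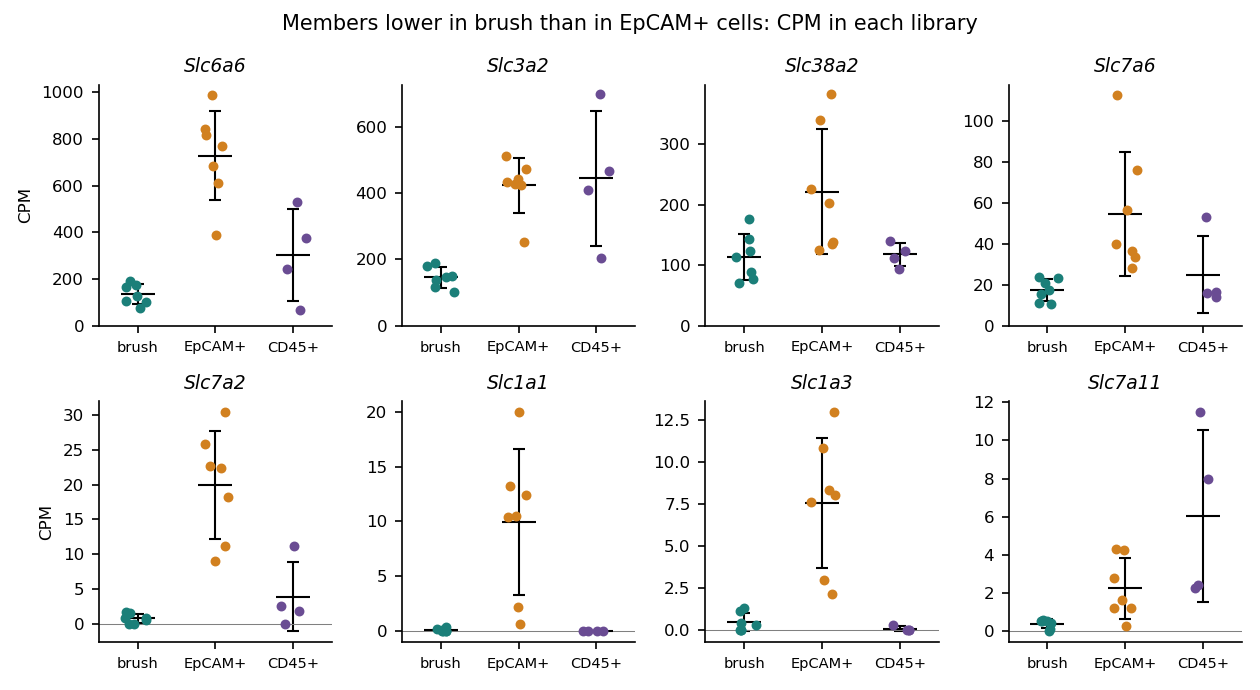
CPM of 8 members lower in brush than in EpCAM+ cells, 1 point per library, with group means and SD bars (n = 7, 7 and 4). For Slc6a6, Slc3a2, Slc7a6, Slc7a2, Slc1a1 and Slc1a3 the brush and EpCAM+ points do not overlap, and in the Slc38a2 and Slc7a11 panels they do.

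Read on the TPM scale within each group, a few transporters held most of the total. Slc3a2 had the highest mean TPM of the members in every group: 137 ± 47.1 in brush, 282 ± 92.7 in EpCAM+ and 287 ± 132 in CD45+ libraries. In brush libraries it was followed by Slc7a4 at 56.2 ± 27.5 TPM, Slc1a5 at 52.9 ± 12.9, Slc6a6 at 49.7 ± 25.4 and Slc38a10 at 43.2 ± 27.1, a set of neighbours whose SDs overlap. In EpCAM+ libraries the order was Slc6a6 at 192 ± 105, Slc1a5 at 51.6 ± 16.8 and Slc38a2 at 39.4 ± 30.5, with Slc7a4 in place 8 at 8.53 ± 3.30. In CD45+ libraries Slc6a6 (83.4 ± 52.7) and Slc1a5 (46.2 ± 24.7) came next, and Slc7a4 was in place 24. Places count all matched genes, among them Slc7a6os, which is no transporter and stood before Slc7a4 in EpCAM+ and CD45+ libraries. By mean TPM Slc1a5 was in the third place in all 3 groups. By the mean of its share in each library, which weights libraries equally, Slc1a5 came second in brush libraries at 12.2 ± 7.14%, before Slc7a4 at 10.2 ± 2.88%. The share of Slc1a5 ran from 7.55% to 28.1%, the highest in the shallow brush replicate 4. This order rests on that library.

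Slc3a2, Slc6a6 and Slc1a5 together held 48.8 ± 7.30% of the summed TPM of the transporters in brush libraries (40.5% to 61.1%), 78.3 ± 4.70% in EpCAM+ (73.1% to 86.5%) and 75.3 ± 3.09% in CD45+ libraries. These hold places 1 to 3 by mean TPM in EpCAM+ and in CD45+ libraries, but not in brush libraries. A lower share in brush libraries is therefore partly built into the choice of this set. Slc7a4, Slc38a1, Slc38a10, Slc1a4, Slc7a1 and Slc43a2, a set chosen after the values were seen, held 33.6 ± 6.52%, 5.80 ± 1.56% and 9.19 ± 2.18%. The summed TPM itself was 516 ± 205 in brush, 669 ± 253 in EpCAM+ and 547 ± 256 in CD45+ libraries. It was 153 at the lowest in brush and 198 at the lowest in EpCAM+ libraries, and the 3 groups overlapped. These sums run over the members and were not tested.

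**Figure D5:**
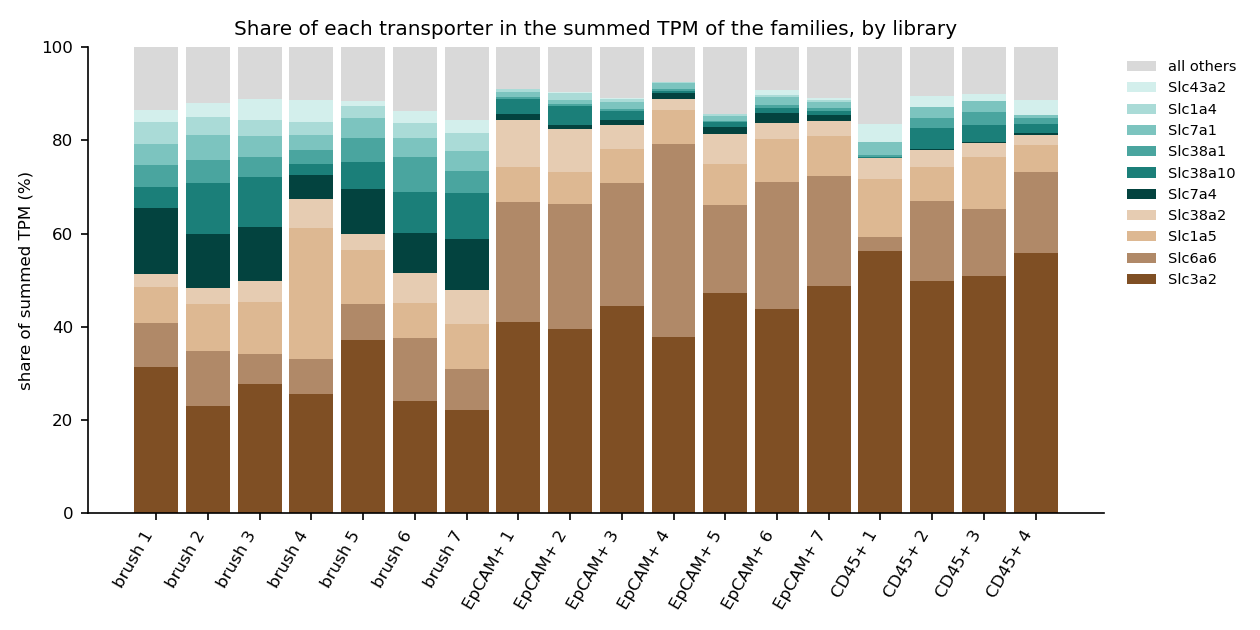
Share of each transporter in the summed TPM of the 7 families, in percent, for each of the 18 libraries, with Slc3a2, Slc6a6, Slc1a5 and Slc38a2 in brown, 6 others in green and the rest in grey. The green share is 21.3% to 39.6% in brush libraries and at most 7.98% in EpCAM+ libraries.

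The 35 members that did not pass the filter on low counts had few counts or counts in few libraries. Passing required about 2.43 CPM in at least 4 libraries, and a member high in 1 group could pass through that group alone, as 6 did through EpCAM+ and 1 (Slc7a3) through brush libraries. Slc1a6, Slc6a21 and Slc7a9 had 0 counts in all 18 libraries. Slc1a7, a retinal glutamate carrier, had 27 counts in brush libraries and 0 in the others. Slc6a20a, an importer of proline and related imino acids, had 26 counts in brush, 4 in EpCAM+ and 0 in CD45+ libraries, and the glutamine carrier Slc38a5 had 31, 26 and 0. Slc43a1 (LAT3) had 64 counts in CD45+ libraries against 10 and 5 in brush and EpCAM+ libraries, and Slc6a19, the neutral amino acid importer of gut and kidney, had 61 against 5 and 0. CD45+ replicate 3 held 57 of the 64 and 54 of the 61. As a level, Slc6a19 was higher in the shallow CD45+ replicate 1, where 7 counts came to 20.1 CPM, than in replicate 3 at 5.91 CPM, and it was at 0 in the other CD45+ libraries. Slc1a2, the main glutamate carrier of astrocytes, had 17 counts in brush, 64 in EpCAM+ and 24 in CD45+ libraries, and Slc3a1, the heavy chain of the cystine and dibasic amino acid exchanger, 14, 25 and 7. Others had at most 23 counts in any group: Slc6a2, Slc6a3, Slc6a5, Slc6a7, Slc6a11, Slc6a12, Slc6a13, Slc6a16, Slc6a17, Slc6a18, Slc6a19os, Slc6a20b, Slc7a10, Slc7a12, Slc7a13, Slc7a14, Slc7a15, Slc36a1os, Slc36a2, Slc36a3, Slc38a3, Slc38a4, Slc38a8 and Slc38a11. No fold is given for these genes.

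Genes that use or sense the carried amino acids were read from 7 lists, whose counts stand beside all genes tested, of which 18.3% were higher and 22.0% lower in brush than in EpCAM+ cells and 23.4% and 22.4% than in CD45+ cells. Of 9 genes of taurine, creatine and glycine metabolism tested, 3 were higher and 2 lower in brush than in EpCAM+ cells, and 4 were higher and 3 lower than in CD45+ cells. Gamt, which makes creatine, averaged 66.1 ± 32.2 CPM in brush and 6.76 ± 5.33 in EpCAM+ libraries (log2 difference 3.26), and was also higher than in CD45+ cells. Gatm, another creatine gene of the list, did not pass against EpCAM+ cells. Against CD45+ cells Gatm was lower, at 0.377 ± 0.377 CPM in brush and 83.5 ± 76.2 in CD45+ libraries (-7.78). Cdo1, cysteine dioxygenase at the head of taurine synthesis, averaged 0.628 ± 0.776 and 56.2 ± 18.6 CPM (-6.16). Csad, another taurine gene of the list, went the other way and was higher in brush cells in both comparisons. It is named outside the rule on size of change, so the taurine genes did not move together with the transporter Slc6a6. Ckmt1, the mitochondrial creatine kinase, averaged 319 ± 49.2 CPM in brush against 2.23 ± 2.59 in CD45+ libraries (6.76), and Ckb, the cytosolic brain-type enzyme, 4.57 ± 1.99 against 237 ± 113 (-5.62). The median log2 difference of the list was 0.12 from EpCAM+ and 0.61 from CD45+ cells.

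Glutamine and glutamate enzymes gave 2 higher and 3 lower of 11 against EpCAM+ cells, where 18.3% and 22.0% of all genes were, and 1 higher and 2 lower against CD45+ cells. Glul, glutamine synthetase, averaged 47.5 ± 12.5 CPM in brush and 420 ± 78.8 in EpCAM+ libraries, a log2 difference of -3.15. Gpt, an alanine aminotransferase, averaged 4.89 ± 2.24 and 102 ± 19.6 CPM (-4.41), and Got1, an aspartate aminotransferase, 29.8 ± 9.17 and 13.7 ± 5.67 (1.13). The list's median was -0.16 against EpCAM+ and -0.30 against CD45+ cells. Of 14 arginine, branched-chain and polyamine genes, 2 were higher and 5 lower against EpCAM+ cells and 3 were higher and 8 lower against CD45+ cells, with medians of -0.69 and -1.36. Asl, argininosuccinate lyase, averaged 113 ± 25.6 CPM in brush and 32.3 ± 7.35 in EpCAM+ libraries (1.80). Sms, spermine synthase, averaged 29.3 ± 5.77 and 7.49 ± 0.614 CPM (1.98), and Sat1, which acetylates spermidine and spermine for their removal, 39.3 ± 11.4 and 646 ± 224 CPM (-4.05).

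Of 19 genes of the integrated stress and amino acid starvation response, Asns alone was higher in brush than in EpCAM+ cells and 6 were lower, among them Atf4, beside 18.3% and 22.0% of all genes. The same counts, 1 and 6, held against CD45+ cells, where Asns, asparagine synthetase, averaged 51.3 ± 21.6 CPM in brush and 4.06 ± 2.86 in CD45+ libraries (log2 difference 3.38). The serine synthesis enzymes Psat1 and Phgdh were at 2.4 ± 0.860 and 1.67 ± 2.25 CPM in brush against 94.4 ± 41.7 and 17.1 ± 7.03 in EpCAM+ libraries, log2 differences of -5.38 and -3.42. The medians of the list were -0.35 against EpCAM+ and -0.33 against CD45+ cells. The 10 immediate early and heat shock genes taken as a dissociation response, all detected in each group, summed to 2860 to 4202 CPM in brush, 14710 to 29375 in EpCAM+ and 3488 to 17954 in CD45+ libraries. They were lower in all brush than in all EpCAM+ libraries, as were stress genes such as Ppp1r15a (44.9 ± 10.6 and 308 ± 74.6 CPM), and their part in the difference was not tested.

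Glutathione genes gave 2 higher and 8 lower of 16 against EpCAM+ cells, with a median of -1.06, and 3 higher and 3 lower against CD45+ cells, with a median of 0.52. Of all genes, 18.3% and 22.0% passed in these directions against EpCAM+ cells and 23.4% and 22.4% against CD45+ cells. Ggt1, which breaks down glutathione outside the cell, and the secreted peroxidase Gpx3 were the higher ones against EpCAM+ cells, at 10.9 ± 5.27 and 15.8 ± 7.07 CPM in brush against 0.729 ± 0.743 and 0.516 ± 0.371. Nfe2l2, which encodes the oxidative stress factor NRF2, averaged 73.1 ± 15.5 CPM in brush and 489 ± 103 in EpCAM+ libraries, a log2 difference of -2.74. Of 29 genes of mTORC1 amino acid sensing, 2 were higher and 1 lower against EpCAM+ cells, and 2 were higher and 5 lower against CD45+ cells, with medians of 0.01 and -0.26. Among 8 other amino acid and peptide transporters, 0 were higher and 2 lower against EpCAM+ cells, and 0 higher and 6 lower against CD45+ cells, with medians of -0.04 and -1.58. The peptide importer Slc15a2 averaged 9.43 ± 3.83 CPM in brush and 242 ± 175 in EpCAM+ libraries (-4.71), and the lysosomal Slc15a3 averaged 0.123 ± 0.166 in brush and 43.2 ± 19.1 in CD45+ libraries (-8.02). The adjusted p-values of the pathway genes given with values, each over all genes tested, ran from 2.96e-10 to 0.0314.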

How the data were processed

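RNA sequencing counts of 18 libraries sorted from mouse trachea were analysed. The authors deposited whole-number read counts per gene symbol, unnormalized, and, per the file headers, RSEM tables with expected counts and TPM for 47729 identifiers, 47224 of them with a symbol and 24712 shared with the count table. The submitters' processing notes name RSEM 1.2.21, DESeq2, Picard 1.1073, featureCounts and STAR 2.4.2a beside mm10, with no role given. Neither annotation nor strand setting is given in the sources used here. Members and gene lists were chosen with earlier results of these data known.

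Counts were tested with the edgeR 4.0.16 quasi-likelihood F test (R 4.3.3), TMM scaling and filterByExpr by group, which left out 12909 genes and tested 13418. The 3 groups shared 1 fit of all 18 libraries, with no other term, and p-values were adjusted by Benjamini-Hochberg over all genes tested, with calls under 0.05. The SE is the absolute log2 difference divided by the square root of F. CPM use the TMM library size, and overlap between libraries was read in CPM. In TPM, brush and EpCAM+ libraries overlapped for Slc7a4, Slc3a2, Slc6a6, Slc7a6, Slc43a2 and Slc1a1. Brush and CD45+ libraries overlapped in TPM for Slc3a2, Slc6a9 and Slc7a11. Per-library values, SE and p are given for members that passed in a brush comparison with a mean of at least 10 CPM in the higher group, and up to 4 genes per pathway list and comparison could be named by size of change; genes outside this rule are marked. Intervals and the floor of 3 counts cover counting error only. Expected counts were rounded for 1 alternative, TPM served to compare genes, and the code was tested on simulated data. Library totals ran from 371652 to 7438791 counts, and 28 alternatives were run, among them DESeq2 1.42.0 and limma-voom (limma 3.58.1). Coordinates are from GENCODE vM21 (GRCm38) and upstream sequence from RefSeq (GRCm38.p6). The labels name no batch. For 1 of the members that did not pass the filter, no value is reported here.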

Additional observations from a re-analysis of the deposited data

Results flagged for a closer look

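In 13 of 91 sets of values of 1 member in 1 group, a single library lay far from the others by Dixon's ratio. The 5% level of this ratio is for normally distributed values. Levels resting on few counts need not follow that form, so no excess over 5% is read from the 13. Brush replicate 4, the shallowest brush library, held 3 of these values. It had the lowest Slc7a1 at 26.4 CPM (next 49.0), and the highest Slc7a6os at 33.9 CPM and Slc38a6 at 11.3 CPM, which rest on 14, 18 and 6 counts. Brush replicate 6 was highest for the proton-coupled carrier Slc36a4 at 7.47 CPM, where the next brush library had 1.82, and for the lysosomal sensor Slc38a9 at 32.6 CPM (next 19.3). Of the 70 brush counts of Slc36a4, 35 came from this library.

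Among EpCAM+ libraries, replicate 5 had the lowest Slc3a2 at 253 CPM (next 423) and the highest Slc7a6os at 58.0 CPM (next 27.9). Replicate 2 was highest for Slc1a4 at 39.5 CPM (next 20.0), without which the EpCAM+ mean is 11.6 CPM, replicate 1 for Slc6a14 at 37.7 CPM (next 16.1) and replicate 6 for Slc43a2 at 15.3 CPM (next 7.44). In CD45+ libraries, replicate 3 was highest for Slc7a6 at 53.0 CPM (next 16.5). CD45+ replicate 4 held the only count of Slc1a3 and the only count of Slc6a15 in that group, 0.254 CPM each.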

How the results depend on the processing

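Of 52 changes of single members, 38 passed under each of the 28 alternatives that tested them, 14 were lost under at least 1 and none changed direction. Against EpCAM+ cells 16 of 22 were kept, against CD45+ cells 8 of 12, and in the EpCAM+ against CD45+ comparison 14 of 18. DESeq2, RLE scaling and leaving out ribosomal RNA genes lost none. The 11 members lower in brush than in EpCAM+ cells became 7 with a minimum of 10 CPM and 7 with only those 2 groups fitted. In both settings Slc1a1, Slc1a3, Slc6a15 and Slc7a11 fell to the filter and were not tested. The 5 members higher than in CD45+ cells became 8 without a filter, with DESeq2 or with RSEM expected counts. Without a filter the 7 lower became 13, and the 7 lower in EpCAM+ than in CD45+ cells 14; the cause was not tested. Without brush replicate 4, EpCAM+ replicate 5 and CD45+ replicate 1 the counts were 12 higher and 12 lower against EpCAM+ cells and 7 and 8 against CD45+ cells.

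Leaving out 1 library at a time gave 7 to 11 members higher and 10 to 12 lower against EpCAM+ cells, the 7 without brush replicate 7. Against CD45+ cells it gave 4 to 6 higher and 4 to 8 lower, the 4 lower without CD45+ replicate 2 or 4. EpCAM+ against CD45+ cells gave 10 to 12 and 5 to 8. Members higher in both brush comparisons numbered 2 to 4, and those lower in both 2 to 5, the latter 2 without CD45+ replicate 2.

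With the replicate number as a block, 10 members were higher and 10 lower against EpCAM+ cells, 5 and 5 against CD45+ cells, and 10 and 8 for EpCAM+ against CD45+ cells; 3 were higher and 3 lower in both. The block lost 5 calls of single members: Slc6a9 (-0.82) and Slc43a3 (1.27) against EpCAM+ cells, Slc6a6 (-0.89) and Slc7a7 (-0.90) against CD45+ cells, and Slc38a2 (0.92) for EpCAM+ against CD45+ cells. Same-numbered libraries correlated at -0.07 to 0.24 between brush and EpCAM+, -0.20 to 0.10 between brush and CD45+ and -0.18 to 0.27 between EpCAM+ and CD45+ libraries, with 2 of 7, 0 of 4 and 1 of 4 closest to their own number, so the numbers were not taken to pair them.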
